A study of Homo sapiens with 6 samples.

Results

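This account covers 44 genes of the transport machinery of the cilium, out of 60604 genes in the count tables of the series: 20 intraflagellar transport (IFT) genes, 7 BBSome subunits, 2 BBSome chaperonins, 2 small GTPases of the cilium, 9 transition zone genes and 4 subunits of the cilium motors. The genes were matched from their Ensembl identifiers to symbols. They were chosen by their own readout, since the set was picked after IFT genes were seen to be lower in the indomethacin libraries than in the control libraries. The fold changes below are therefore a description of how the genes were arranged, and no p-value is given for any of the 44. Of these, 43 had enough counts to enter the fit of 17200 genes. BBS5 did not.

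The cells were AGS, an established human gastric adenocarcinoma line. The control group held 3 libraries labelled with 0 mM indomethacin, and the treated group held 3 libraries from cells kept for 24 h with 0.5 mM of it. Indomethacin belongs to the non-steroidal anti-inflammatory drugs and inhibits cyclooxygenases. The series title names sirtuin 3 as a target that such drugs share. No time is labelled for the controls, no vehicle is named, and nothing states that the 3 samples of a group were separate cultures, so a p-value given below for another gene rests on how far these 6 samples scatter, and that scatter may be only technical.

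A cilium is built and kept up by trains that carry cargo along its microtubules. Trains with the IFT-B complex are drawn to the tip by kinesin-2 and return with the IFT-A complex and dynein-2, while the BBSome rides on the trains as an adaptor that removes membrane proteins from the cilium. The transition zone is the gate at the cilium base, where MKS and NPHP proteins limit what enters. Most epithelial cells can form a single non-motile primary cilium. Cilia themselves were not observed here, only RNA.

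Total counts were 17535435 to 23221077 per library, and 3 counts corresponded to 0.129 to 0.171 CPM, the count scaled to a common library total, a floor which covers counting error only. Mitochondrial genes took 22.8% to 26.8% of the counts in the control libraries and 16.7% to 19.7% in the indomethacin libraries. Markers are said here to reach 1 CPM when their mean did so in either group. All 7 epithelial markers reached 1 CPM, with summed levels of 3370 to 3871 CPM in control and 3055 to 3387 CPM with indomethacin. Within that list EPCAM and KRT8 were called lower and CLDN4 and CDH1 higher. Only 3 of 10 gastric surface and gland markers reached 1 CPM (TFF1, TFF2 and PGC). TFF1 (0.775 ± 0.645 to 25.2 ± 8.47 CPM) and TFF2 (0.0455 ± 0.047 to 1.95 ± 0.625 CPM) did so with indomethacin only. PGC was lower there (20.8 ± 1.17 to 4.5 ± 0.0429 CPM). In this list 3 genes were called lower and 2 higher. GKN1 and GKN2 had means at or under the level of 3 counts per library in both groups. Of 15 markers of motile cilia, 7 had such means, among them FOXJ1, the master regulator of motile cilia, and the axonemal dynein genes DNAH9 and DNAI2. Only CCDC40 and CFAP43 reached 1 CPM, CFAP43 with indomethacin only (0.405 ± 0.256 to 1.35 ± 0.444 CPM). In this list 1 gene was called lower and 1 higher. The 15 together summed to 5.16 to 6.10 CPM in control and 4.47 to 6.51 CPM with indomethacin. Fibroblast markers summed to 42.5 to 48.8 CPM in control and 14.6 to 20.2 CPM with indomethacin, of which 3 of 8 reached 1 CPM and COL1A2, COL3A1, DCN and THY1 had means at or under the level of 3 counts per library in both groups. The lower sum came mostly from PDGFRA (37.6 ± 2.53 to 6.05 ± 3.94 CPM), while COL1A1 was higher (4.93 ± 1.31 to 10.0 ± 0.95 CPM). Of 7 leukocyte markers only LYZ reached 1 CPM (list sum 599 to 1367 CPM in control, 118 to 125 CPM with indomethacin), and none of 4 endothelial markers did. The part of these shifts in the values below was not tested. In total RNA of a culture, fewer cells that express a gene and less of its RNA per cell cannot be told apart.

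Across the 43 genes, edgeR's quasi-likelihood test called 22 lower and 7 higher with indomethacin at an adjusted p under 0.05, and left 14 uncalled. Over all 17200 genes tested the same rule called 31.0% lower and 30.6% higher. The median log2 fold change, indomethacin over control, was -0.38 for the 43 genes and 0.04 for all genes tested. In 33 of the 43 the 2 groups of libraries did not overlap, 26 with the indomethacin libraries below and 7 with them above. The share of all genes tested without overlap was 33.3% with indomethacin below and 33.7% with indomethacin above. With library sizes that leave out the mitochondrial genes, 23 were called lower and 7 higher. Because this contrast chose the genes, nothing is read from these counts. The values are set out by class below as a description only.

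**Figure D1:**
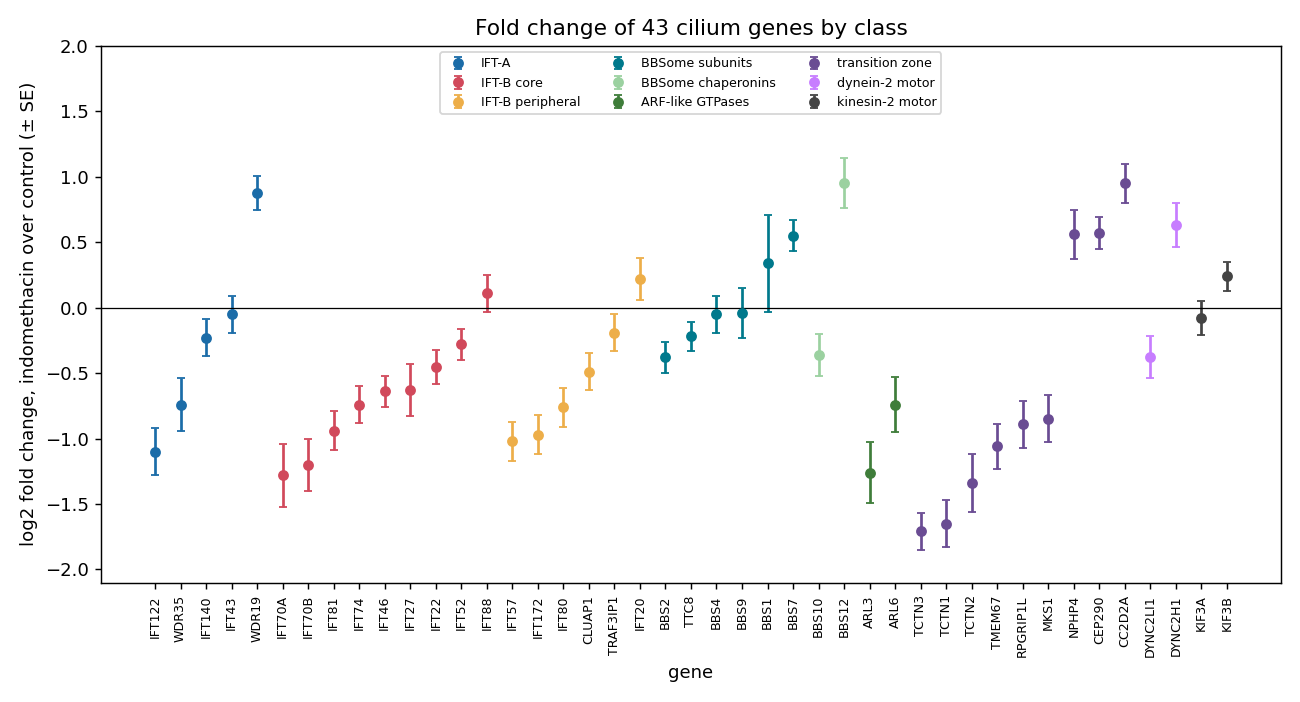
Log2 fold change (indomethacin over control, 3 libraries each, bars ± SE derived from the test's F statistic) for the 43 genes tested, coloured by class and sorted within it. IFT-B genes lie between -1.28 and 0.22, the BBSome subunits between -0.38 and 0.55, and the transition zone has members at both ends, from -1.71 to 0.95.

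The values by class are a description, because the set was picked after IFT genes were seen to be lower. Differences between classes were not tested. Over all genes tested, 31.0% were called lower and 30.6% higher. The median was -0.64 in IFT-B, where 11 of 15 genes were called lower and none higher, and -0.23 in IFT-A, where 2 of 5 were lower and 1 higher. BBSome subunits had a median of -0.04, with 1 of 6 tested lower and 1 higher, and the 9 transition zone genes a median of -0.89, with 6 lower and 3 higher. The 4 motor subunits had a median of 0.08, with 1 higher and none lower. Measured library by library as the median distance of a class from its control mean, IFT-B stood at -0.62, -0.70 and -0.74 on the log2 scale in indomethacin libraries 1, 2 and 3, and the transition zone at -0.87, -0.93 and -1.04. The control libraries, which lie around 0 because the distance is taken from their own mean, stood between -0.04 and 0.03 in both classes. In the BBSome subunits the indomethacin libraries stood at 0.10, 0.00 and -0.20, on both sides of the control range of -0.05 to 0.05.

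Per kilobase of exon, the 44 genes had a median of 1.81 CPM in the control libraries, and all genes tested a median of 2.59 with quartiles of 0.632 and 7.73. KIF3B, a motor subunit of kinesin-2, had the highest level per kilobase at 14.7 ± 0.851 CPM (SD, n = 3), followed by the IFT-B backbone gene IFT52 at 13.3 ± 0.433 and IFT57 at 10.3 ± 1.53. These 3 stood apart from the other 41 genes, of which the next, IFT46, had 5.72 ± 0.11. The order depends on the annotated exonic length, which was 2539 bases for IFT52 and 9465 for TCTN3. Before division by length, TCTN3 (50.2 ± 3.41 CPM) was above IFT57 (37.4 ± 5.56 CPM) and IFT52 (33.9 ± 1.1 CPM). At the other end, BBS1 had 0.127 ± 0.0237 CPM per kilobase, and BBS5 had 0, 0.0427 and 0 CPM (not per kilobase) in the control libraries and 0, 0.0497 and 0 CPM in the indomethacin libraries. That is 1 count in each group, so no fold is given for BBS5. BBS1 and BBS5 are both subunits of the BBSome, whose other 5 subunits listed here were between 1.31 and 4.20 CPM per kilobase.

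**Figure D2:**
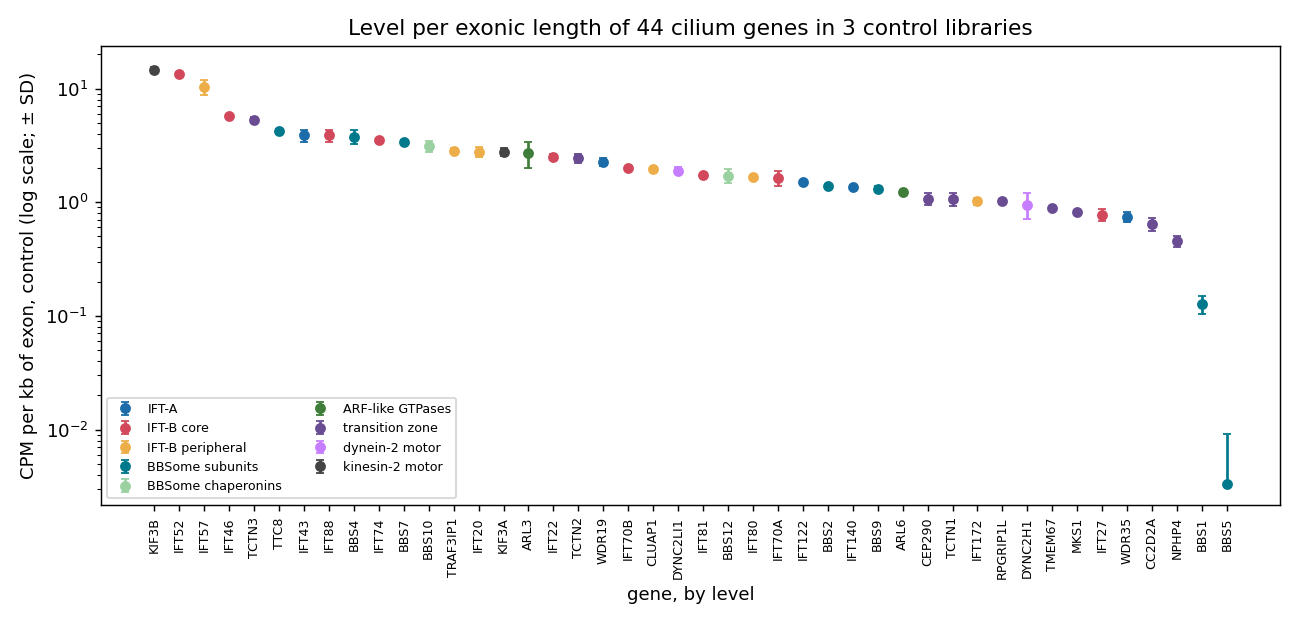
Level per kilobase of exon (CPM per kb, log axis) of the 44 genes in the 3 control libraries, points at the mean with bars of ± SD, in order of level. Most lie between 0.453 and 5.72 CPM per kb, KIF3B, IFT52 and IFT57 lie above and BBS1 and BBS5 below. No lower bar is drawn for BBS5, whose SD is larger than its mean.

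The promoters were read next, because the genes of the ciliary machinery are known for X-boxes, the binding sites of RFX transcription factors, which consist of 2 inverted arms. RefSeq promoter windows on GRCh38, from 250 bases before to 50 bases after the annotated start, were matched by symbol for 39 of the 44 genes, and WDR35, IFT22, BBS9, TMEM67 and TCTN2 had none. Of 44 windows checked, the last 20 bases of 42 were found in an annotated transcript of the same gene. The windows of IFT70A and IFT70B, which have other names among the transcripts, were not checked. The letters searched, on both strands, were GTNNCC followed after 1 to 3 bases by GGNNAC. Such a pair was present in 8 of the 39 genes (20.5%), in 1163 of all 27305 genes with a window (4.26%) and in 541 of the 11112 genes tested that had one (4.87%). By class it was present in 5 of 18 IFT genes, 2 of 7 transition zone genes, 1 of 10 BBSome, chaperonin and GTPase genes, and 0 of 4 motor genes. With a spacing of exactly 2 bases the shares were 4 of 39 (10.3%) and 2.51% of all genes. The shares are not compared by a test, and a match to these letters is a description, not a shown binding site.

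The pairs are shown to let a reader compare their arms and their place. They are written 5′ to 3′ on the strand of the gene, with the 2 arms and the bases between them in capitals and 7 bases on each side in lower case. The first 6 genes follow the rule for promoters, with the GTPase gene ARL6 counted among the BBSome genes. TCTN3 and TCTN1 were added after their values were seen because they had the lowest fold changes of the 44.
IFT70A: ttgccctGTTGCCGTGGTAACcgcacgc
IFT122: catgtacGTTGCCAGGGGTAACgcaggta
IFT57, nearer the start: tccggtgGTCGCCTGGTAACcggtcgt
IFT57, further from the start: gagtctaGTTTCCCTGGTGACggattgt
ARL6: agctcctGTTGCCAAGGGAACggtgcct
IFT74: cgcccccGTTGCCGGGATACgccgcgg
WDR19: tcgcgcgGTCTCCTGGGTGACgggaacg
TCTN3: actgacgGTTGCCAGGCAACggaggca
TCTN1: tgtcgcgGTTGCCGGGCAACgcgctgt

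Coordinates are those of the printed stretches, flanks included, and distances to the RefSeq start are those of the first base of the pair. The stretch of IFT70A lies at chr2:177618720-177618747 on the minus strand, and its pair begins 2 bases after the start. That of IFT122 lies at chr3:129440205-129440233 on the plus strand, with a pair that begins 12 bases before the start and reaches past it. IFT57 has 2 stretches, at chr3:108222408-108222434, with a pair 3 bases before the start, and at chr3:108222434-108222461, with a pair 30 bases before it, both on the minus strand. ARL6 has its stretch at chr3:97764727-97764754 on the plus strand, with the pair 24 bases before the start, and IFT74 at chr9:26956377-26956403 on the plus strand, with the pair 28 bases before it. In WDR19 it lies at chr4:39182459-39182486 on the plus strand, with the pair 63 bases before the start. The pair of TCTN3 is the farthest out, 215 bases before the start, in the stretch at chr10:95694123-95694149 on the minus strand. That of TCTN1, in the stretch at chr12:110614122-110614148 on the plus strand, begins at the start itself. The 8 genes with a pair had log2 fold changes from -1.71 to 0.88 with a median of -1.06, and the 30 tested genes with a window and no pair from -1.26 to 0.95 with a median of -0.22. WDR19 was the only gene with a pair that was higher with indomethacin. This contrast chose the genes, and the pair was spread unevenly over the classes, which differ in their medians. A relation of the pair to the fold change was not tested.

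In IFT-A, the complex of the returning trains, 2 of 5 genes were called lower, 1 higher and 2 were not called. All genes tested had 31.0% called lower and 30.6% higher. IFT122, a scaffold subunit of the complex, stood at 14.6, 14.4 and 14.7 CPM in the control libraries and at 4.90, 7.61 and 7.99 CPM in the indomethacin libraries. No library of one group reached the other, and the log2 fold change was -1.10 ± 0.18 (SE), a 2.14-fold lower level. IFT122 shares 144 exonic bases with MBD4 on the opposite strand, and whether the authors' counting used strand was not given in the sources used here. WDR35, a subunit needed for the entry of membrane proteins, was low in every library, at 5.20, 6.01 and 6.24 CPM in control and 3.42, 3.28 and 3.79 CPM with indomethacin (log2 fold change -0.74 ± 0.20). Its groups did not overlap. WDR19, which sits beside them in the same complex, stood at 20.4, 21.1 and 18.1 CPM in control and at 40.6, 38.3 and 30.5 CPM with indomethacin, a log2 fold change of 0.88 ± 0.13 and the only rise called among the 20 IFT genes. IFT140 (-0.23) and IFT43 (-0.05) were not called. With only the genes that share no exonic base with another gene, 2 IFT-A genes are left, WDR19 and WDR35, and the median of the class was 0.07 in place of -0.23.

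IFT-B, the complex of the outgoing trains, has a core and a peripheral part. IFT70A and IFT70B, neighbouring copies on chromosome 2 whose protein wraps around IFT52 in the core, had the lowest fold changes of the core. IFT70A stood at 10.3, 7.81 and 10.2 CPM in control and at 5.32, 3.73 and 2.46 CPM with indomethacin (log2 fold change -1.28 ± 0.24). IFT70B stood at 7.70, 7.68 and 7.60 CPM in control and at 4.18, 3.08 and 2.64 CPM with indomethacin (-1.20 ± 0.20). All 6 indomethacin values of the 2 copies lay under all 6 control values. The copies share 330 windows of 100 identical bases, 5.62% of those of IFT70A and 8.42% of those of IFT70B, and with windows of 50 bases the shares are 10.6% and 15.8%. Reads from the shared stretches could be assigned to either copy, so both values are uncertain. IFT88, a core subunit whose loss abolishes cilia in mice, stood at 26.7, 22.6 and 21.1 CPM in control and at 27.9, 27.3 and 20.7 CPM with indomethacin. Its groups overlapped and its log2 fold change was 0.11 ± 0.14.

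Between these ends lay the remaining core genes. IFT81 (-0.94 ± 0.15) and IFT74 (-0.74 ± 0.14), which together form a tubulin-binding module, were 12 ± 0.33 and 25.5 ± 1.15 CPM in control (SD, n = 3) and 6.26 ± 0.291 and 15.3 ± 2.54 CPM with indomethacin. IFT46 (-0.64 ± 0.12), IFT27 (-0.63 ± 0.20) and IFT22 (-0.45 ± 0.13) were also lower, the latter pair being small GTPases of the complex. For IFT22 the value is uncertain, because 3887 of its 6585 exonic bases overlap EMSLR on the opposite strand. IFT27 shares 955 of its 8009 bases, and its call was lost without control replicate 2 (-0.56). IFT52 missed the call at -0.28 ± 0.12 with 33.4, 35.1 and 33.0 CPM in control and 25, 25.8 and 32.8 CPM with indomethacin. Indomethacin library 3 nearly reached the controls. IFT52 was called lower without that library (-0.43), and also with all 6 libraries by limma-voom (-0.30), by DESeq2 (-0.35) and without the filter on low counts (-0.39).

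The peripheral part followed a similar range. IFT57, which joins the peripheral part to the core, was at 43.2, 32.1 and 36.9 CPM in control and at 18.1, 15.0 and 22.2 CPM with indomethacin (log2 fold change -1.02 ± 0.15). IFT172, its longest subunit, was at 14.9, 17.1 and 16.7 CPM in control and at 7.27, 8.50 and 9.13 CPM with indomethacin (-0.97 ± 0.15). Neither gene had overlapping groups. IFT80 (-0.76 ± 0.15) and CLUAP1, also called IFT38 (-0.49 ± 0.14), were called lower too. IFT20, which also serves at the Golgi, had 9.86, 8.92 and 8.12 CPM in control and 8.79, 10.5 and 12.1 CPM with indomethacin, overlapping groups with a log2 fold change of 0.22 ± 0.16. TRAF3IP1, also called IFT54, was not called at -0.19.

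**Figure D3:**
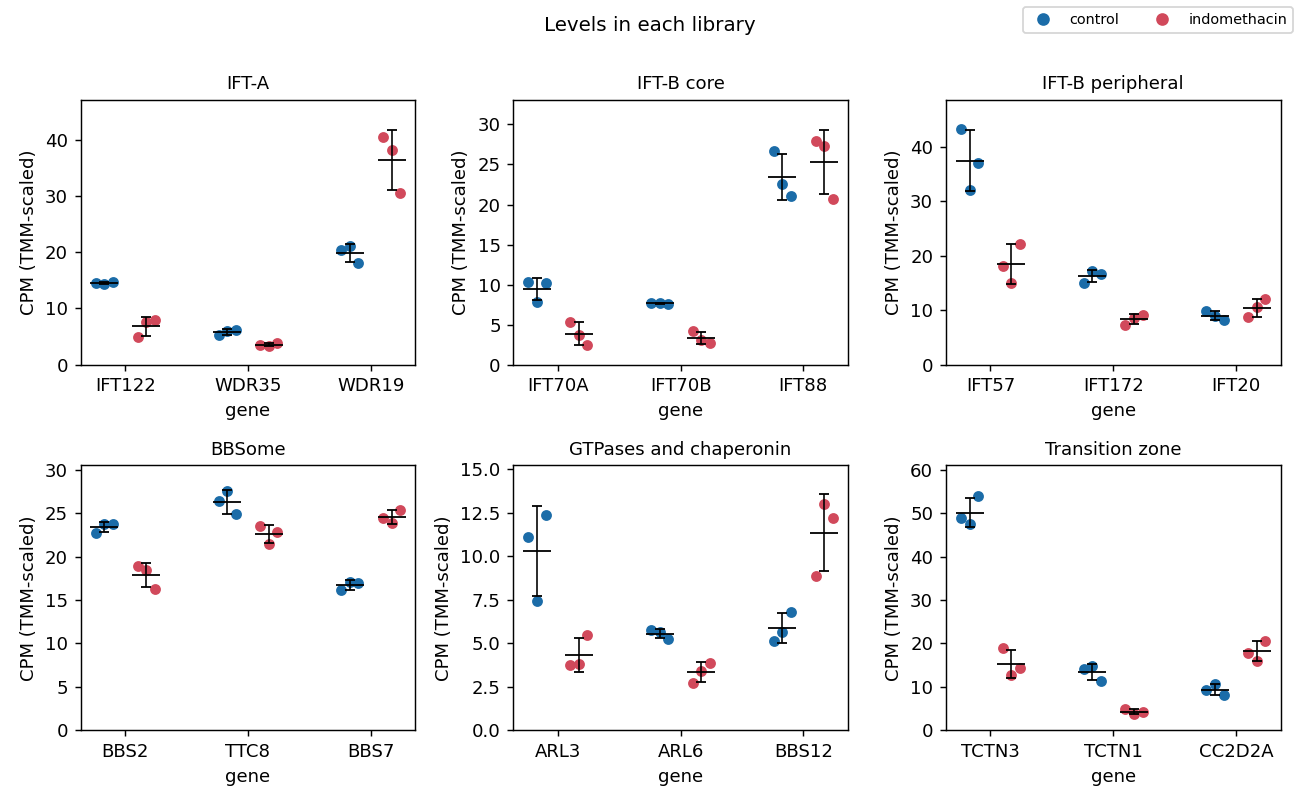
Levels (TMM-scaled CPM, linear axes from 0) of 18 of the genes in each of the 6 libraries, with control in blue, indomethacin in red, and the mean ± SD (n = 3) in black. IFT122, IFT70A, IFT57, ARL3 and TCTN3 show control points above all indomethacin points, WDR19, BBS7, BBS12 and CC2D2A show the reverse, and IFT88 and IFT20 overlap.

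The subunits of the BBSome, the cargo adaptor, had small fold changes on both sides of 0. BBS2 was at 22.7, 23.8 and 23.7 CPM in control and at 18.9, 18.5 and 16.3 CPM with indomethacin (log2 fold change -0.38 ± 0.12). It was called lower, except with upper-quartile scaling (-0.27). TTC8, also called BBS8, was at 26.4, 27.6 and 24.9 CPM in control and at 23.5, 21.5 and 22.8 CPM with indomethacin, without overlap but also without a call (-0.22 ± 0.11). BBS7, which pairs with BBS2 in the complex, was at 16.1, 17.1 and 17.0 CPM in control and at 24.4, 23.9 and 25.4 CPM with indomethacin (log2 fold change 0.55 ± 0.12, no overlap). BBS2 and BBS7 thus lay on opposite sides of 0. BBS4 (-0.05) and BBS9 (-0.04) were not called, and their sign turned with upper-quartile scaling (0.07 and 0.08). BBS1 was not called either, at 0.777 ± 0.145 CPM in control and 0.98 ± 0.293 CPM with indomethacin. Without indomethacin replicate 3 the median of the BBSome subunits was 0.03 in place of -0.04.

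The chaperonins BBS10 and BBS12 help to assemble the BBSome. BBS12 was at 5.15, 5.67 and 6.80 CPM in control and at 8.84, 13.0 and 12.2 CPM with indomethacin, a log2 fold change of 0.95 ± 0.19 with no overlap. BBS10 was at 9.71, 12 and 11.5 CPM in control and at 7.99, 9.75 and 8.11 CPM with indomethacin, and was not called at -0.36 ± 0.16, with groups that overlap by 1 library of each. BBS10 was called lower without the filter on low counts (-0.47), without control replicate 1 (-0.50) and without indomethacin replicate 2 (-0.46). Both small GTPases were lower. ARL6, which recruits the BBSome to membranes, was at 5.79, 5.63 and 5.25 CPM in control and at 2.71, 3.43 and 3.85 CPM with indomethacin (-0.74 ± 0.21). ARL3, which releases lipid-modified cargo inside the cilium, was at 11.1, 7.42 and 12.4 CPM in control and at 3.75, 3.78 and 5.47 CPM with indomethacin (-1.26 ± 0.23).

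All 9 transition zone genes were called, 6 lower and 3 higher, where all genes tested had 31.0% lower and 30.6% higher. The lowest fold changes among the 44 genes were those of the tectonics, proteins of the gate membrane. TCTN3 was at 49.0, 47.5 and 54.0 CPM in control and at 18.9, 12.8 and 14.3 CPM with indomethacin, a log2 fold change of -1.71 ± 0.14 and a 3.27-fold lower level. TCTN1 was at 14.1, 14.8 and 11.4 CPM in control and at 4.94, 3.73 and 4.15 CPM with indomethacin (-1.65 ± 0.18, 3.15-fold lower). The groups of both genes lay far apart, with the highest indomethacin value at less than the lowest control value. TCTN1 shares 724 of its 12558 exonic bases with HVCN1 on the opposite strand. TCTN2 was at 12.5 ± 1.17 CPM in control and 4.97 ± 1.89 CPM with indomethacin (-1.34 ± 0.22). The membrane protein TMEM67, also known as meckelin (-1.06 ± 0.17), RPGRIP1L (-0.89 ± 0.18) and MKS1 (-0.85 ± 0.18) completed the lower genes.

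CC2D2A, a large scaffold of the same MKS group, was at 9.32, 10.7 and 8.12 CPM in control and at 17.9, 16 and 20.6 CPM with indomethacin, a log2 fold change of 0.95 ± 0.15. CEP290, which bridges the microtubules and the membrane at the gate, was at 26.9 ± 3.33 CPM in control and 39.9 ± 2.51 CPM with indomethacin (0.57 ± 0.12). NPHP4 of the NPHP group was at 5.97 ± 0.625 CPM in control and 8.80 ± 1.70 CPM with indomethacin (0.56 ± 0.19). Its call was the least stable of the 9, being lost with DESeq2 (0.50) and without the filter on low counts (0.45), and without control replicate 2 (0.45), control replicate 3 (0.52) or indomethacin replicate 2 (0.44).

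Of the motor subunits, 1 of 4 was called, where all genes tested had 31.0% lower and 30.6% higher. DYNC2H1, the heavy chain of dynein-2, was at 18.5, 12.3 and 12 CPM in control and at 21.7, 24.3 and 20.2 CPM with indomethacin, with control library 1 nearest to the treated ones and a log2 fold change of 0.63 ± 0.17. DYNC2LI1, its light intermediate chain, was at 9.47, 8.53 and 8.26 CPM in control and at 7.37, 6.51 and 6.25 CPM with indomethacin (-0.38 ± 0.16, not called, no overlap). DYNC2LI1 was called lower without the filter on low counts (-0.49), with library sizes that leave out mitochondrial genes (-0.39) and without indomethacin replicate 1 (-0.48). KIF3A was at 19.3, 20.2 and 17.3 CPM in control and at 18.3, 19.4 and 15.8 CPM with indomethacin (-0.08 ± 0.13). KIF3B was at 84.7, 90.9 and 95 CPM in control and at 118, 93.7 and 108 CPM with indomethacin (0.24 ± 0.11). The groups of both kinesin subunits overlapped and neither was called, but KIF3B was called higher with upper-quartile scaling (0.36), with the filter of 1 CPM (0.29) and without indomethacin replicate 2 (0.32).

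The other genes of the pathway were taken from 8 lists of known cilium genes, which hold 108 genes besides the 44. Of these, 90 were tested, 37 were lower and 21 higher by edgeR's adjusted p, and the median log2 fold change was -0.18. The shares over all genes tested were 31.0% lower and 30.6% higher, with a median of 0.04.

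**Figure D4:**
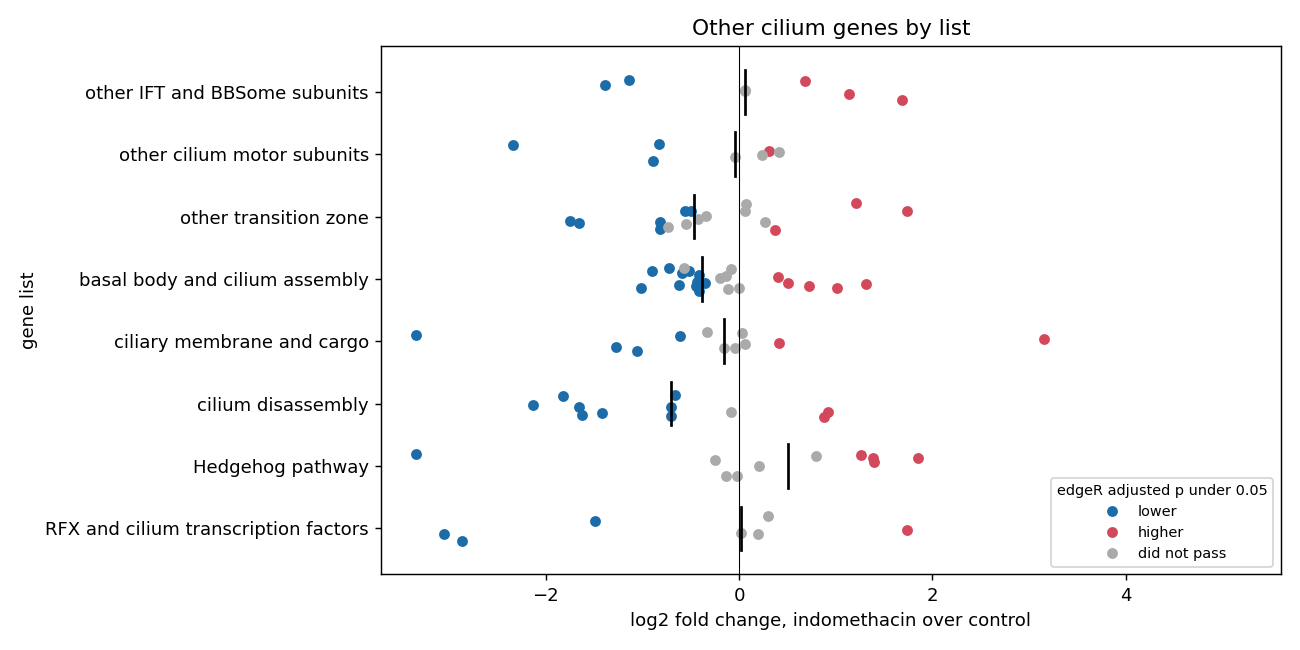
Log2 fold change (indomethacin over control) of the tested genes of 8 lists of other cilium genes, 1 point per gene with the vertical place within a list random, coloured by the edgeR call, with black ticks at the medians. KIF7 is in 2 lists. The disassembly list has the lowest median at -0.70 and the Hedgehog list the highest at 0.50.

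Of 7 further genes of the IFT and BBSome machinery, not all of them subunits, 2 were lower, 3 higher and 2 not called, with a median of 0.06. The lower ones were IFT-B subunits, HSPB11 (IFT25), from 46.0 ± 5.74 to 20.8 ± 1.93 CPM (log2 fold change -1.14 ± 0.13, edgeR adjusted p = 3.1e-06), and TTC26 (IFT56), from 9.36 ± 1.13 to 3.59 ± 0.326 CPM (-1.39 ± 0.18, edgeR adjusted p = 1.7e-05). TULP3, the adaptor that hands membrane cargo to IFT-A, rose from 29 ± 0.684 to 93 ± 26 CPM (1.68 ± 0.16, edgeR adjusted p = 8.8e-07). BBIP1, the smallest BBSome subunit, rose from 7.96 ± 0.728 to 17.6 ± 2.19 CPM (1.14 ± 0.15, edgeR adjusted p = 1.6e-05), although 1277 of its exonic bases are shared with PDCD4. LZTFL1, a regulator of BBSome entry, also rose (0.68 ± 0.17, edgeR adjusted p = 0.0034). Of 7 other motor subunits tested, 3 fell and 1 rose. DYNC2I2, an intermediate chain found only in dynein-2, fell from 64.5 ± 3.39 to 12.7 ± 1.59 CPM (-2.34 ± 0.12, edgeR adjusted p = 2.3e-09). The light chains DYNLL1 (-0.89 ± 0.11, edgeR adjusted p = 9.1e-06) and DYNLT1 (-0.83 ± 0.12, edgeR adjusted p = 3.8e-05), which dynein-2 shares with cytoplasmic dynein, fell too. KIFAP3, the third subunit of kinesin-2, was higher at 0.31 ± 0.10 (edgeR adjusted p = 0.016), a call that was lost with DESeq2 (0.25), without the filter on low counts (0.21) and without any 1 of the control replicates (0.25 to 0.29).

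Of 16 other transition zone genes, 6 fell, 3 rose and 7 did not pass, with a median of -0.47. TMEM237, a membrane protein of the gate, fell from 26.6 ± 1.72 to 7.96 ± 1.58 CPM (log2 fold change -1.75 ± 0.15, edgeR adjusted p = 3.1e-07). AHI1, a scaffold called jouberin, rose from 17.2 ± 2.42 to 57.2 ± 8.37 CPM (1.74 ± 0.14, edgeR adjusted p = 1.5e-07). IQCB1 rose by less (0.37 ± 0.11, edgeR adjusted p = 0.0082). The members and the further genes of the gate both held genes called lower and genes called higher. So did all genes tested, with 31.0% lower and 30.6% higher.

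At the basal body and in cilium assembly, 11 of 22 genes tested fell and 5 rose, with a median of -0.38. The 5 that rose included CEP164, a protein of the distal appendages that dock the basal body (log2 fold change 1.31 ± 0.11, edgeR adjusted p = 2.2e-07), and TTBK2, the kinase that CEP164 recruits (1.01 ± 0.15, edgeR adjusted p = 5.8e-05). However, 1254 of the 12921 exonic bases of TTBK2 are shared with KRT8P50 on the same strand. EHD1, a membrane-shaping protein of early cilium growth, rose by 0.72 ± 0.13 (edgeR adjusted p = 0.00027), OFD1 by 0.51 ± 0.11 (edgeR adjusted p = 0.001) and RAB3IP by 0.40 ± 0.11 (edgeR adjusted p = 0.0067). RAB11A, which brings membrane to the new cilium, fell from 121 ± 2.40 to 79.1 ± 9.0 CPM (-0.62 ± 0.11, edgeR adjusted p = 0.00023). Among genes of the ciliary membrane and its cargo, 4 of 11 tested fell and 2 rose, with a median of -0.16. UNC119B, a carrier of lipid-modified cargo that ARL3 unloads, fell from 43.1 ± 3.70 to 17.9 ± 0.659 CPM (-1.27 ± 0.11, edgeR adjusted p = 4.5e-07). GPR161, a ciliary receptor that restrains Hedgehog signalling, fell from 108 ± 9.04 to 51.6 ± 16.2 CPM (-1.06 ± 0.17, edgeR adjusted p = 0.00013), and the channel gene PKD2 fell by 0.61 on the log2 scale (edgeR adjusted p = 0.00025). PKD1 rose from 22.0 ± 2.11 to 195 ± 48.0 CPM (3.15 ± 0.16, edgeR adjusted p = 2.3e-09), but PKD1 has near-identical pseudogene copies on the same chromosome and its value is uncertain. INPP5E, the phosphatase of the ciliary membrane, rose by 0.41 ± 0.14 (edgeR adjusted p = 0.023).

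Genes that disassemble the cilium had the lowest median of the 8 lists, -0.70, with 8 of 11 lower and 2 higher. AURKA, the kinase that starts disassembly and also acts in mitosis, fell from 115 ± 11.7 to 26.3 ± 6.95 CPM (log2 fold change -2.13 ± 0.16, edgeR adjusted p = 7.9e-08). The mitotic kinase gene NEK2 (-1.82 ± 0.16, edgeR adjusted p = 2.8e-07), the centriole kinase gene PLK4 (-1.66 ± 0.17, edgeR adjusted p = 1.8e-06) and the kinesin gene KIF24 (-1.42 ± 0.15, edgeR adjusted p = 1.6e-06) fell as well. All 4 also act in the cell cycle. HDAC6, the deacetylase that destabilises the axoneme (0.88 ± 0.14, edgeR adjusted p = 0.00011), and NDE1 (0.92 ± 0.15, edgeR adjusted p = 0.00013) rose, though 1063 exonic bases of NDE1 are shared with MYH11.

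The Hedgehog pathway signals through the primary cilium. Of its 17 genes only 10 had enough counts to be tested, and SMO, the signal transducer that enters the cilium, had 3 counts in all control libraries together and 6 in all indomethacin libraries. GLI3, EVC and EVC2 were at 0 in all 6 libraries, and GAS1 had 1 count in each group. The read-outs GLI1 (1.29 ± 0.249 to 1.46 ± 0.539 CPM) and PTCH1 (4.99 ± 0.35 to 4.51 ± 1.61 CPM) were not called (edgeR adjusted p = 0.64 and 0.65). The 4 genes that rose were at low levels. CDON, a co-receptor, rose from 1.21 ± 0.416 to 4.41 ± 1.03 CPM (log2 fold change 1.85 ± 0.30, edgeR adjusted p = 0.00012), but 2831 of its exonic bases are shared with VSIG10L2. The ligand gene IHH rose from 2.75 ± 0.351 to 6.52 ± 2.59 CPM (1.26 ± 0.28, edgeR adjusted p = 0.0016). SHH (17 counts in control, 40 with indomethacin, edgeR adjusted p = 0.017) lost its call with DESeq2 (1.37), without the filter on low counts (1.30) and without control replicate 1, control replicate 3 or indomethacin replicate 3 (1.19 to 1.26), and HHIP, named after its values were seen, was higher at 1.13 ± 0.753 CPM with overlapping groups (edgeR adjusted p = 0.035). KIF7, a kinesin that sets the tip of the cilium, was the single lower gene, at 1.10 ± 0.326 and 0.0965 ± 0.0951 CPM (-3.34 ± 0.60, edgeR adjusted p = 0.00027), and shares 589 exonic bases with TICRR.

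Among transcription factors of cilium genes, 7 of 12 were tested, 3 were lower and 1 higher. RFX2, RFX3 and RFX7, of the family that binds X-boxes, were not called, with levels of 6.23 ± 0.771 and 7.21 ± 1.38 CPM for RFX2 and 7.60 ± 1.63 and 9.33 ± 2.09 CPM for RFX3 in control and with indomethacin (edgeR adjusted p = 0.38 and 0.22). RFX1 rose from 2.54 ± 0.289 to 8.49 ± 2.02 CPM (log2 fold change 1.74 ± 0.22, edgeR adjusted p = 1.4e-05). RFX5, best known as a regulator of MHC class II genes, fell from 70.8 ± 3.07 to 9.68 ± 0.935 CPM (-2.87 ± 0.12, edgeR adjusted p = 3.9e-10). MYB (-3.05 ± 0.30, edgeR adjusted p = 1.1e-06) and MCIDAS (-1.49 ± 0.35, edgeR adjusted p = 0.0023), which act in multiciliated cells among other roles, were lower from levels of 7.91 ± 0.831 and 1.89 ± 0.0784 CPM.

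Some of the genes share a promoter region with a neighbour read the other way. Starts within 1000 bases on the opposite strand, with a neighbour that was tested, were found for 10 of the 43 genes (23.3%) and for 3667 of all 17200 (21.3%). Of these 10 neighbours, 4 were lower, 1 higher and 5 not called, where all genes tested had 31.0% lower and 30.6% higher. IFT80 (-0.76) and its neighbour SMC4, a condensin subunit (log2 fold change -1.39 ± 0.11, edgeR adjusted p = 1e-07), were both lower, but the 2 genes share 243 exonic bases on opposite strands and SMC4 was at 162 ± 4.77 CPM in control against 11.8 ± 0.358 CPM for IFT80. Also lower were ARL3 (-1.26) and SFXN2 (-1.29 ± 0.20, edgeR adjusted p = 7.1e-05). In other cases only 1 side was called, as with IFT122 (-1.10) and MBD4, which went from 37.6 ± 0.827 to 43.7 ± 1.54 CPM (0.22 ± 0.10, edgeR adjusted p = 0.077). IFT74 (-0.74) and PLAA (0.27 ± 0.11, edgeR adjusted p = 0.04) were called in opposite directions. So were CEP290 (0.57) and TMTC3 (-0.57 ± 0.1, edgeR adjusted p = 0.00027). Neighbours named here were chosen after their values were seen.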

How the data were processed

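Total RNA of the 6 libraries was depleted of ribosomal RNA and made into libraries with a stranded kit, read as pairs, per the labels' protocols. HISAT2 2.1.0, cutadapt 1.16, FastQC 0.11.7, bcl2fastq, SAMtools, featureCounts and DESeq2 with build hg38 are named per the submitters' processing notes. For the strand setting, the handling of multimapping reads and the annotation release, a statement is not given in the sources used here. The values are the authors' raw counts per gene, 1 deposited table per library. Of 60607 lines, 3 were broken and left out. Symbols came from the reference tables for 60462 genes.

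Replicates differed by more than counting noise in each pair (chi-square over its degrees of freedom 7.91 to 25.9), and all 6 were kept. Genes were kept with filterByExpr, scaled by TMM and tested over all 17200 genes with edgeR 4.0.16 (R 4.3.3), quasi-likelihood, group as the only term, Benjamini-Hochberg threshold 0.05. The SE of a log2 fold change is its absolute value divided by the square root of the F statistic of this test. Levels are TMM-scaled CPM, mean ± SD, divided by exonic length from the file headers where per kilobase. The count tests were run on simulated data with far fewer changed genes than were called here. Their error rate in these data was not tested. Alternatives were limma-voom (limma 3.58.1), DESeq2 1.42.0, other factors, filters, genes without shared exons, a replicate block and each replicate left out.

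Values in every library were given for the 2 lowest and the highest fold change of each class, the highest and lowest level per length, and IFT70A with IFT70B. In each other list up to 4 genes with the smallest adjusted p were named, and the few against its majority, except that 2 genes this rule takes are not reported here. For promoters up to 6 IFT and BBSome genes with the pair, ARL6 counted among the latter, were taken, lowest fold change first. IFT52 and other genes outside the rule were named after their values were seen. The members and lists were chosen with earlier results of these data known.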

Additional observations from a re-analysis of the deposited data

How the results depend on the processing

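Over the 43 genes and 15 alternatives, 596 fold changes kept their direction and call, 13 gained a call, 7 lost one and 8 changed sign. Signs changed for IFT43 (0.07 with upper-quartile scaling, 0.00 with the 1 CPM filter), BBS4 (0.07 with upper-quartile scaling, -0.16 to 0.04 with a replicate left out), BBS9 (0.08 with upper-quartile scaling, 0.01 with the 1 CPM filter, -0.24 to 0.15 with a replicate left out) and KIF3A (0.04 with upper-quartile scaling), none of them called. Upper-quartile scaling moved the median of all genes from 0.04 to 0.16.

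The median log2 fold change of IFT-A was -0.30 with DESeq2, -0.11 with upper-quartile scaling, -0.34 without a filter, -0.18 with the 1 CPM filter and 0.07 without genes that share exonic bases, and -0.32 to -0.23 with a replicate left out. For IFT-B it was -0.71, -0.52, -0.75 and -0.59 in the first 4 of these, and -0.75 to -0.63 with a replicate left out. The BBSome median was 0.08 with upper-quartile scaling and -0.15 to 0.03 with a replicate left out. The transition zone median was -0.96 with DESeq2, -0.77 with upper-quartile scaling, -0.99 without a filter, -1.07 without genes that share exonic bases, and -1.12 to -0.78 with a replicate left out.

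Leaving out genes that share exonic bases left 10032 genes, with 3045 higher and 3135 lower (31.2%). Of 23 members left, 10 were lower and 5 higher, against 22 and 7 of 43 in the main fit. Of 44 other cilium genes left, 22 were lower and 7 higher. Fewer genes were tested in this setting, so the counts are to be read with the numbers left. With the replicate block, 5249 genes were higher and 5352 lower, with 22 members lower and 7 higher. Deviations of libraries with the same number correlated at 0.0233, 0.0117 and 0.132, so the numbers were not taken to pair the samples.

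Levels at or under 3 counts per library, such as those of BBS5 and SMO, give no fold at this depth. With 3 libraries a group, an exact permutation test cannot go below p = 0.1. Genes that overlap another on the opposite strand cannot be told apart if strand was not used.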
